A study of Mus musculus with 3 samples.

Results

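The collagens other than type IV were followed through mouse lung cells and nuclei. The members were chosen by symbol alone, as every gene in both deposited tables written as Col, a number, the letter a and a number, without Col4a1 to Col4a6. This gave 38 of the 21507 genes that the tables share, beside 6 type IV collagens that were left aside. The lung came from wild type C57Bl/6J mice, with no treatment given in the labels, and was profiled by 10x 3' v3 droplet sequencing to compare 2 preparations. The group called cells was 1 library of cells released from fresh tissue by collagenase with DNAse, then cleaned on a density gradient. The group called nuclei was 2 libraries of nuclei from snap-frozen lung of adult mice, lysed in a detergent buffer and filtered. Preparation and fresh or frozen tissue cannot be told apart here, and enzymes that cut collagen protein were used on the cells only.

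Collagens are trimeric proteins of the extracellular matrix. Fibrillar collagens (types I, III and V) form the tensile fibres of airway, vessel and alveolar wall; fibril-associated types (XII, XIV, XIX) bind to those fibres; type VI forms beaded filaments; type VIII forms networks around vessels; types XIII and XXIII are anchored in the cell membrane; and types XV and XVIII, the multiplexins, sit at basement membranes. In lung, fibroblasts are the main source of fibrillar collagen, and Col13a1 and Col14a1 are widely used to tell alveolar from adventitial fibroblasts.

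The libraries held 11934 cells and 6760 and 9806 nuclei after filtering, with 35962788, 28062109 and 27148272 counts before it. Xist stood at 285, 1022 and 9.62 CPM (counts scaled to a common library total) and Uty at 1.03, 0.938 and 269 CPM in cells, nuclei 1 and nuclei 2, so the nucleus libraries were not both made from the same single animal. Library pairs shared 21 to 24 barcode sequences. The labels name no separate animals, so p-values measure only the spread between these libraries, which may be technical in part. Clusters were found without any collagen gene and named from marker lists. Each class name below stands for a cluster that is like that type by its markers. The mesenchymal classes were alveolar fibroblast, adventitial fibroblast, pericyte, smooth muscle and myofibroblast, and mesothelial, with 1625 cells and 1318 and 1805 nuclei. In the nuclei, the adventitial cluster had 7 of 12 adventitial markers raised but none of them among its 10 leading genes, which touches several results below.

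To show what lies just before the start of the members that the results turn on, the last 150 bases before the RefSeq start (GRCm38.p6) are given for Col3a1, found in all mesenchymal classes, for Col13a1, highest in alveolar fibroblasts, for Col8a1, highest in pericytes, and for Col23a1, highest in club nuclei. Capitals mark the letters TATAAA, the letters GGGCGG and the letters CCAAT, each searched on both strands.
Col3a1 (chr1:45311388-45311537, plus strand): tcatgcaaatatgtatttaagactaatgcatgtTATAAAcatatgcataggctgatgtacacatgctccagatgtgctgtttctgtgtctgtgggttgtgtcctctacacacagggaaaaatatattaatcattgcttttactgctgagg
Col13a1 (chr10:61979109-61979258, minus strand): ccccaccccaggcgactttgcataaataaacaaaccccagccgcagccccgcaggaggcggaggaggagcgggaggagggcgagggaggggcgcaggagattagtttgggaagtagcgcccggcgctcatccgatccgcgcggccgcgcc
Col8a1 (chr16:57754738-57754887, minus strand): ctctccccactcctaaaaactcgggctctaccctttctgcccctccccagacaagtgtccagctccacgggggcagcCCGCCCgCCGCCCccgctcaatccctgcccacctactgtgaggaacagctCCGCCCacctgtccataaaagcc
Col23a1 (chr11:51289770-51289919, plus strand): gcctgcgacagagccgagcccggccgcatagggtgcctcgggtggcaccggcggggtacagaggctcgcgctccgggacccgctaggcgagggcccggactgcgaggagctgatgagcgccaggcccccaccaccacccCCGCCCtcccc
Col3a1 carried TATAAA on the printed strand, Col8a1 carried GGGCGG 3 times as its complement CCGCCC, Col23a1 carried it 1 time, and Col13a1 had none of these letters in its window. Over the 250 bases before the start, 30 of the 38 members matched the RefSeq table, with 33 windows. GGGCGG stood in 57.6% of member windows and 32.7% of all 32851 windows, TATAAA in 15.2% and 12.4%, and CCAAT in 30.3% and 33.8%. These matches are a description of letters, not of bound sites. Col3a1 (chr1:45311538-45349706, plus strand, 38.2 kb) lies 24.6 kb from Col5a2 on the other strand, and Col6a1 and Col6a2 lie 85.2 kb apart on chromosome 10 on the same strand.

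The 38 members took 0.0751% of counts in cells and 0.0835% and 0.109% in the nuclei. Which gene and which lineage supplied them differed between the preparations. In cells, 51.0% of member counts came from mesenchymal barcodes, which were 13.6% of barcodes, and 7.14% came from epithelial barcodes. In nuclei 1 and nuclei 2, mesenchymal barcodes gave 32.4% and 42.2% of member counts, and epithelial barcodes gave 52.4% and 44.9%. A single gene, Col23a1, held 3.75% of member counts in cells but 52.1% and 38.2% in the nuclei, and Col19a1 held 26.3% in cells but 0.363% and 0.356% in the nuclei. These shares follow the mix of cell types in each library as well as the level in each type. In whole libraries, fewer cells of a type and less RNA per cell cannot be told apart.

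**Figure D1:**
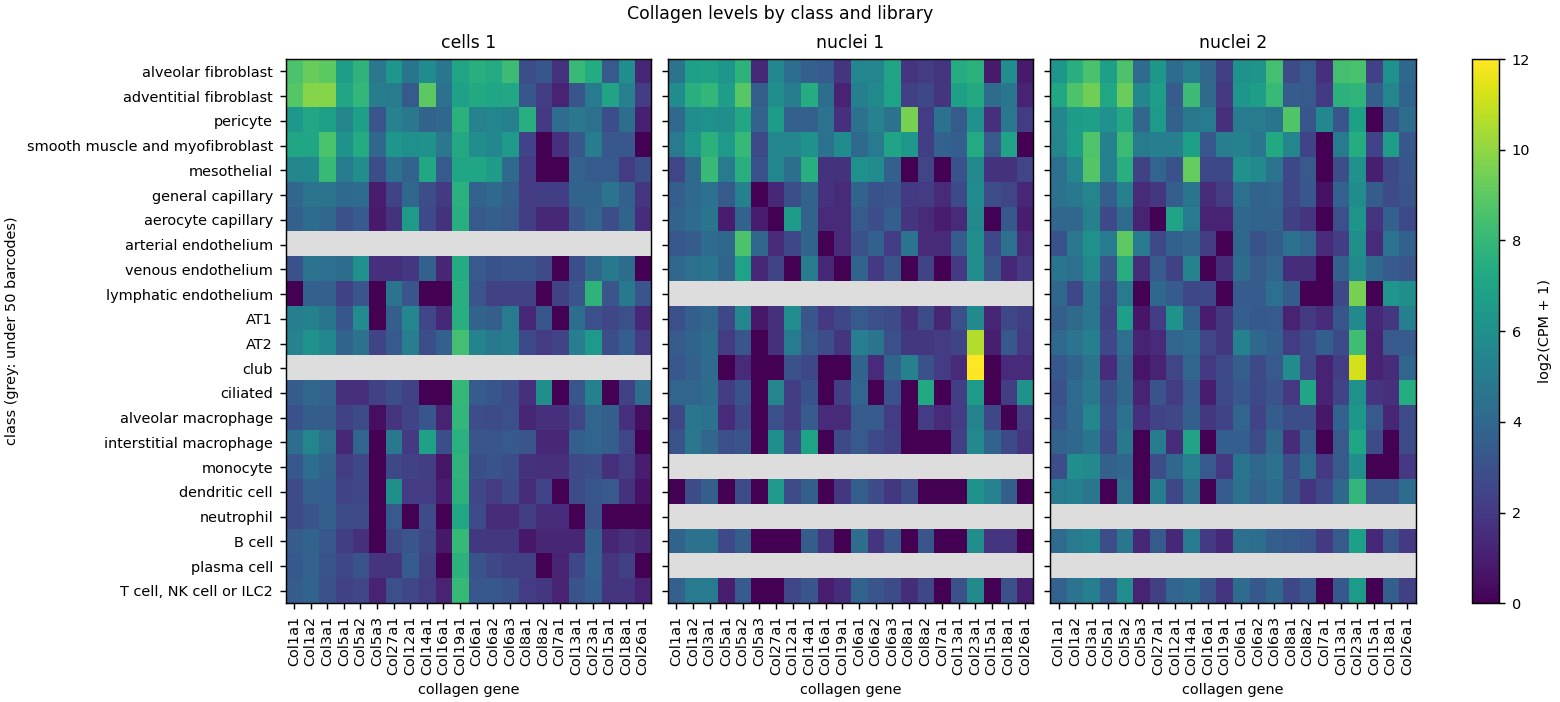
Level of 22 members in each class and library, as log2(CPM + 1) after TMM scaling, with classes in rows, genes in columns and grey for classes under 50 barcodes. The fibrillar and type VI genes are mostly brightest among the 5 mesenchymal rows at the top, Col19a1 is a bright column in cells alone, and Col23a1 is brightest in the club nuclei of both libraries.

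The fibrillar genes Col1a1, Col1a2, Col3a1, Col5a1 and Col5a2, the type VI genes Col6a1, Col6a2 and Col6a3, and Col8a1 and Col13a1 stood higher in mesenchymal barcodes than in each other lineage of every library. Col23a1, a transmembrane collagen like Col13a1, stood at 150 and 234 CPM in mesenchymal nuclei and at 1325 and 631 CPM in epithelial nuclei. Of the 38 members, 31 passed the filter on low counts, so the counts here describe those 31 and not all members. Against endothelial barcodes, 19 were higher in mesenchymal and 0 lower (edgeR adjusted p under 0.05), where 11.1% of all 16900 genes tested were higher and 8.69% lower. Against epithelial barcodes, 20 were higher and 2 lower, beside 12.7% and 11.3% of all genes. Against immune barcodes, 22 were higher and 1 lower, beside 16.8% and 16.0%. The median log2 fold over the tested members was 2.12, 2.28 and 2.39 against endothelial, epithelial and immune barcodes, and over all genes it was -0.02, 0.07 and -0.03. The lineages were compared within libraries, with the library as a term of the model. Without nuclei 1 or nuclei 2, the calls against endothelial barcodes fell to 11 and 10, and those against epithelial barcodes to 13 and 12.

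Col3a1, which forms fibrils with type I collagen in distensible tissue, stood at 454, 142 and 393 CPM in mesenchymal barcodes of cells, nuclei 1 and nuclei 2. In endothelial barcodes it stood at 20.5, 20.8 and 43.6 CPM, and in immune barcodes at 10.8, 18.9 and 34.6 CPM. The mesenchymal values lay above every other lineage in all 3 libraries, with a log2 fold of 3.51 ± 0.45 (SE) against endothelial barcodes (edgeR adjusted p = 0.000583). Col5a1, whose product helps to start fibrils, was at 89.2, 70.3 and 87.6 CPM in mesenchymal barcodes and at 3.93, 2.58 and 6.69 CPM in immune ones. Its log2 fold against immune barcodes was 4.29 ± 0.35 (edgeR adjusted p = 4.25e-05). Col6a3, the largest chain of type VI collagen, was at 171, 92.7 and 213 CPM in mesenchymal barcodes against 6.08, 4.31 and 12.7 CPM in immune ones, a log2 fold of 4.41 ± 0.45 (edgeR adjusted p = 0.00011). Col27a1, a fibrillar collagen best known from cartilage, was at 60.1, 54.1 and 65.5 CPM in mesenchymal barcodes and at 12.3, 24.4 and 10.5 CPM in immune ones. Its log2 fold was 4.28 against endothelial and 1.97 against immune barcodes, and dendritic cells held 61.0, 89.9 and 32.9 CPM of it.

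The members that were lower in mesenchymal barcodes were few. Col8a2, the second chain of network-forming type VIII, had a log2 fold of -1.44 ± 0.26 against epithelial barcodes (edgeR adjusted p = 0.00305), and -1.51 without nuclei 2 (edgeR adjusted p = 0.0838). It stood at 60.4, 158 and 133 CPM in ciliated barcodes of cells, nuclei 1 and nuclei 2, the highest class in each library. Col26a1 followed the same class, at 18.8, 68.0 and 170 CPM, with a log2 fold of -1.61 ± 0.29 (edgeR adjusted p = 0.00316), and -1.71 without nuclei 2 (edgeR adjusted p = 0.126). Its level in ciliated barcodes was highest in nuclei 2, which also held 61.4 CPM in lymphatic barcodes. Col11a2 had a log2 fold of -1.58 ± 0.51 against immune barcodes (edgeR adjusted p = 0.0374), at levels of 3.70, 3.16 and 3.35 CPM in immune and 2.40, 0.554 and 0.742 CPM in mesenchymal barcodes. That call was lost without nuclei 1 (-1.21, edgeR adjusted p = 0.275) and without nuclei 2 (-1.28, edgeR adjusted p = 0.216). Col17a1, a hemidesmosome collagen of epithelia, was instead higher in mesenchymal barcodes, at 7.62, 4.43 and 4.82 CPM against 1.83, 0.252 and 0.756 CPM in epithelial ones (log2 fold 2.77, edgeR adjusted p = 0.00207). Without nuclei 1 that call was lost (2.23, edgeR adjusted p = 0.0516). Endothelial barcodes held 7.21, 1.58 and 1.16 CPM of Col17a1, so in cells they were near the mesenchymal level.

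**Figure D2:**
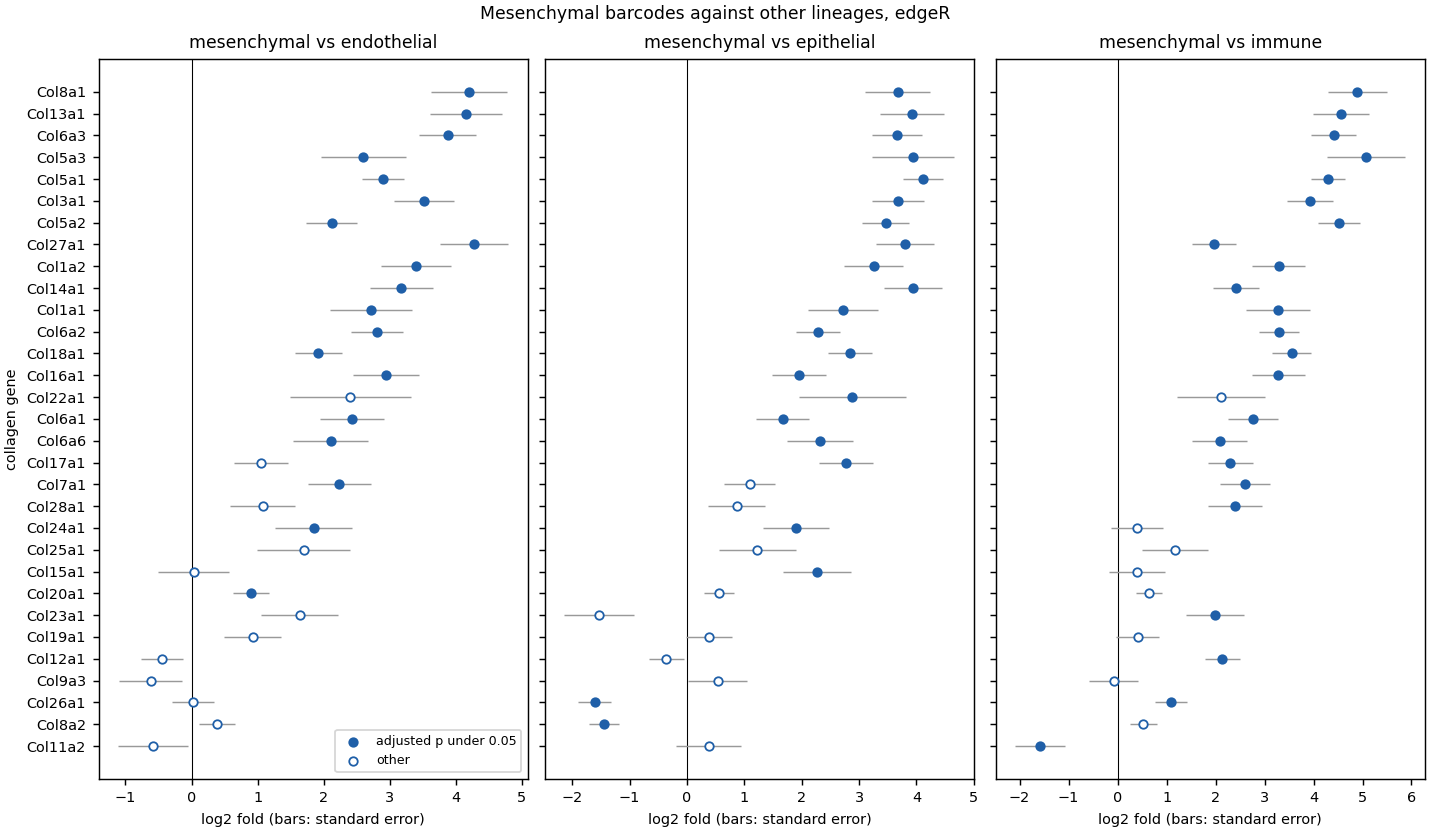
Log2 fold of mesenchymal barcodes over endothelial, epithelial and immune barcodes for the 31 members tested, with standard errors as bars and filled points for an edgeR adjusted p under 0.05. Most points lie to the right of 0, while Col8a2 and Col26a1 lie to the left in the epithelial panel and Col11a2 in the immune panel.

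Within the mesenchyme, the fibrillar genes Col3a1 and Col5a2 reached at least 50 CPM in all 5 classes of every library. Other fibrillar genes did so in fewer classes, and a few members marked single ones. Col1a2, one of the 2 chains of type I collagen, reached 912, 190 and 401 CPM in adventitial fibroblasts and 590, 112 and 190 CPM in alveolar fibroblasts of cells, nuclei 1 and nuclei 2. Pericytes held 141, 58.8 and 98.8 CPM, smooth muscle and myofibroblasts 134, 76.6 and 106 CPM, and mesothelial barcodes 47.9, 16.7 and 45.8 CPM. The order from adventitial to alveolar to the other classes held in each library, while pericytes and smooth muscle and myofibroblasts did not keep 1 order. Col3a1 differed from Col1a2 in the mesothelial class, the cells that line the lung surface, where it stood at 281, 279 and 445 CPM. Col1a1, the other chain of type I, was at 453, 57.0 and 143 CPM in adventitial and at 391, 23.7 and 78.4 CPM in alveolar fibroblasts. Col5a2, which pairs with Col5a1, stood at 244, 475 and 614 CPM in adventitial and at 219, 217 and 404 CPM in alveolar fibroblasts, and was also found in vessel lining. Arterial nuclei held 456 ± 89.3 CPM of it (SD, n = 2) and venous barcodes 63.1, 122 and 180 CPM.

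Pericytes, which wrap capillaries, differed from alveolar fibroblasts in 12 of the 21 members tested. Of these 2 were higher and 10 lower (edgeR adjusted p under 0.05), where 7.60% and 8.87% of all 11447 genes were. Col8a1, the first chain of type VIII, stood at 182, 752 and 424 CPM in pericytes, and its next highest class was smooth muscle and myofibroblast at 83.9 CPM in nuclei 1 and club at 54.0 CPM in nuclei 2. Every pericyte value lay above every other named class in its library, with a log2 fold of 6.39 ± 0.59 over alveolar fibroblasts (edgeR adjusted p = 3.56e-06). Col7a1, the anchoring fibril collagen of skin, was also higher, at 18.5, 21.4 and 47.3 CPM and a log2 fold of 3.54 ± 0.52 (edgeR adjusted p = 0.000375). Col6a3 had a log2 fold of -3.01 ± 0.30, at 37.4, 21.4 and 24.7 CPM in pericytes against 299, 126 and 345 CPM in alveolar fibroblasts (edgeR adjusted p = 7.15e-06). The other members lower in pericytes were Col13a1, Col18a1, Col1a1, Col1a2, Col23a1, Col3a1, Col5a2, Col6a1 and Col6a2, with log2 folds from -0.98 to -3.79. Without nuclei 2, the calls fell from 12 to 7.

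Mesothelial barcodes differed from alveolar fibroblasts in 10 of the 21 members, 1 higher and 9 lower, beside 9.01% and 9.65% of all genes (edgeR adjusted p under 0.05). Col14a1, which binds to fibril surfaces, stood at 144, 183 and 582 CPM in mesothelial and at 55.9, 11.8 and 33.7 CPM in alveolar barcodes, with no overlap between the classes (log2 fold 3.28 ± 0.47, edgeR adjusted p = 0.000129). Col18a1, the source of endostatin, was lower with a log2 fold of -3.92 ± 0.74 (edgeR adjusted p = 0.00129), and alveolar fibroblasts held 57.4, 58.0 and 69.9 CPM of it. Smooth muscle and myofibroblasts differed in 7 members, 2 higher and 5 lower, beside 4.60% and 4.58% of all genes. The higher ones were Col8a1 (log2 fold 3.10 ± 0.68, edgeR adjusted p = 0.0086) and Col12a1, a fibril-associated collagen of tissues under tension (1.32 ± 0.38, edgeR adjusted p = 0.04). Without cells 4 members were called in this class, of which 2 were among the 7, without nuclei 1 it was 4, of which 3 were, and without nuclei 2 it was 0. Col8a1 was not called without nuclei 1 (1.73, edgeR adjusted p = 0.237) or nuclei 2 (3.11, edgeR adjusted p = 0.183), and Col12a1 was called in none of these fits. Col12a1 was highest outside the mesenchyme, in the aerocyte class of capillary endothelium, at 91.8, 95.8 and 129 CPM, and AT1 barcodes held 45.5, 57.3 and 71.5 CPM.

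The adventitial and alveolar fibroblast classes differed in 1 of the 21 members at the clustering used for the tests, beside 1.62% of all genes higher and 0.751% lower. Col14a1 stood at 502, 170 and 294 CPM in adventitial and at 55.9, 11.8 and 33.7 CPM in alveolar fibroblasts, with no overlap (log2 fold 3.37 ± 0.45, edgeR adjusted p = 0.00114). Without nuclei 2 the fold was 3.45 and the call was lost (edgeR adjusted p = 0.0542). Col13a1, the membrane collagen used to mark alveolar fibroblasts, stood at 272, 171 and 348 CPM there. In adventitial fibroblasts it was at 8.37 CPM in cells but at 113 and 212 CPM in nuclei. The values in nuclei changed with the clustering. At Leiden resolution 2, 117 nuclei of the adventitial class stayed in it, in a cluster led by genes that include Scara5 and Pi16. The other 365 joined 37 alveolar nuclei in a cluster of 402, led by Agtr1b, which carried 6 alveolar and 5 adventitial markers and was counted as alveolar.

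At resolution 2 and without TMM scaling, Col13a1 stood at 11.8, 4.45 and 10.9 CPM in adventitial and at 306, 149 and 312 CPM in alveolar fibroblasts of cells, nuclei 1 and nuclei 2. Its adventitial values rest on only 8, 1 and 2 counts, and the class held 56 and 61 nuclei. Col14a1 stood at 623, 441 and 933 CPM in adventitial and at 62.6, 18.7 and 58.1 CPM in alveolar fibroblasts. Neither gene overlapped between the classes in any library, although neither was used for clustering. The test then called 8 members in place of 1, 4 higher and 4 lower, beside 3.58% and 4.02% of all 10052 genes. Col14a1 (log2 fold 3.79), Col15a1 (3.50), Col3a1 (1.24) and Col1a2 (1.14) were higher in adventitial fibroblasts, and Col13a1 (-4.83), Col23a1 (-1.54), Col12a1 (-1.39) and Col6a3 (-1.01) were lower (edgeR adjusted p from 9.33e-07 to 0.0491). Col12a1, too, had only 8, 1 and 2 adventitial counts at resolution 2. Without the cell library, 5 members were called at resolution 1, and 6 with no filter on low counts.

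**Figure D3:**
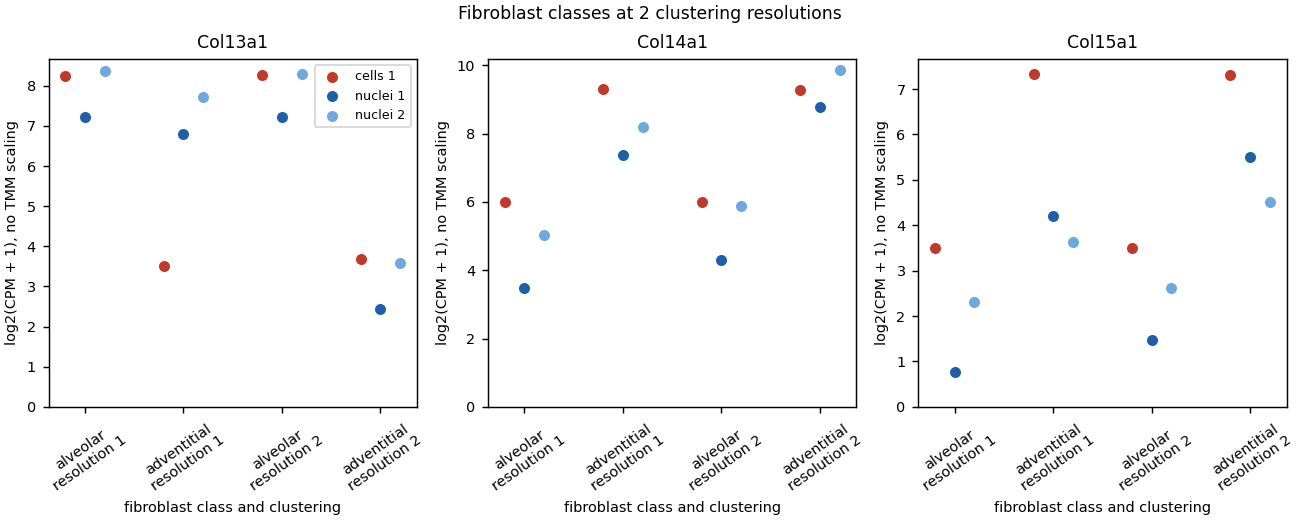
Col13a1, Col14a1 and Col15a1 in alveolar and adventitial fibroblasts at Leiden resolutions 1 and 2, as log2(CPM + 1) without TMM scaling, with 1 point per library. Col13a1 in adventitial nuclei moves from near the alveolar level at resolution 1 to the level of adventitial cells at resolution 2, where it rests on 1 and 2 counts.

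Over whole libraries, cells and nuclei differed in 5 of the 36 members tested, 4 higher and 1 lower in cells, beside 16.4% and 8.42% of all 19806 genes (edgeR adjusted p under 0.05). The fit had 1 cell library, assumed to vary like the nuclei. Col1a1 was at 56.6 CPM in cells, against 16.8 ± 6.89 CPM in the nuclei (SD, n = 2), with a log2 fold of 1.75 ± 0.41 (edgeR adjusted p = 0.0282). Col1a2 was at 91.7 CPM in cells against 38.5 ± 10.9 CPM in the nuclei (log2 fold 1.25 ± 0.35, edgeR adjusted p = 0.0466), and Col15a1 at 12.1 CPM and 3.57 ± 0.502 CPM (log2 fold 1.76 ± 0.44, edgeR adjusted p = 0.0345). The remaining fibrillar genes did not pass: Col3a1 stood at 86.7 CPM in cells and 42.0 and 94.5 CPM in nuclei, so that the cell value lay between the nucleus libraries. Col5a2 stood at 41.6 CPM in cells and at 85.9 ± 20.2 CPM in nuclei (SD, n = 2; log2 fold -1.05 ± 0.37, edgeR adjusted p = 0.0836). The median log2 fold was 0.06 over the 36 members and -0.03 over all genes.

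Within alveolar fibroblasts, 5 of 24 members tested were higher in cells and 0 lower, beside 10.1% and 2.64% of all 13972 genes (edgeR adjusted p under 0.05). Col1a1 stood at 391 CPM in cells and at 23.7 and 78.4 CPM in nuclei (log2 fold 3.17 ± 0.59, edgeR adjusted p = 0.0145). Col1a2 stood at 590 CPM against 112 and 190 CPM (log2 fold 2.20 ± 0.42, edgeR adjusted p = 0.0154). The first 2 chains of type VI followed, with Col6a1 at 181 CPM against 44.9 and 68.2 CPM and Col6a2 at 159 CPM against 43.3 and 74.1 CPM (log2 folds 1.90 and 1.66). Col6a3, the remaining chain of type VI measured at this level, did not pass, at 299 CPM in cells and 126 and 345 CPM in nuclei. Col13a1, Col5a1 and Col18a1 also had cell values between or near the nucleus values. These calls depend on the fit, since edgeR called 0 of all genes in this class with RLE scaling and 0 with no filter on low counts, while DESeq2 called 4 of the members.

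Within adventitial fibroblasts, 6 of 21 members were higher and 2 lower in cells, beside 14.6% and 8.52% of all genes. Col15a1 stood at 128 CPM in cells and at 17.7 and 11.5 CPM in nuclei (log2 fold 3.46 ± 0.39, edgeR adjusted p = 9.36e-05). At resolution 2 its log2 fold was 2.38 ± 0.54 (edgeR adjusted p = 0.000143). Col1a1, Col1a2 and Col6a1 were higher in cells at both resolutions, with log2 folds of 2.49, 1.95 and 1.77 at resolution 1. Col14a1 was called at resolution 1 (1.43 ± 0.37, edgeR adjusted p = 0.015) but had a log2 fold of 0.04 at resolution 2. Col13a1 (-3.94) and Col23a1 (-2.31) were the members lower in cells at resolution 1. At resolution 2 Col23a1 had a log2 fold of -1.19 (edgeR adjusted p = 0.104). Col13a1, not tested there, stood at the 11.8, 4.45 and 10.9 CPM given above. Resting on 8, 1 and 2 counts, these values did not show a lower level in cells. In pericytes 0 of 22 members and 0% of all 11699 genes were called by edgeR, with 5 members and 3392 genes at an unadjusted p under 0.05. DESeq2 called 1 member there and edgeR with no filter called 4. In smooth muscle and myofibroblasts 2 members were higher and 3 lower, beside 12.1% and 6.17% of all genes, and DESeq2 called 0. The lower ones were Col8a1, Col18a1 and Col23a1. At resolution 2 the Col8a1 fold turned from -3.47 to 0.98. In mesothelial barcodes Col19a1 and Col6a1 were higher and 0 members lower, beside 10.5% and 3.66% of all genes.

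**Figure D4:**
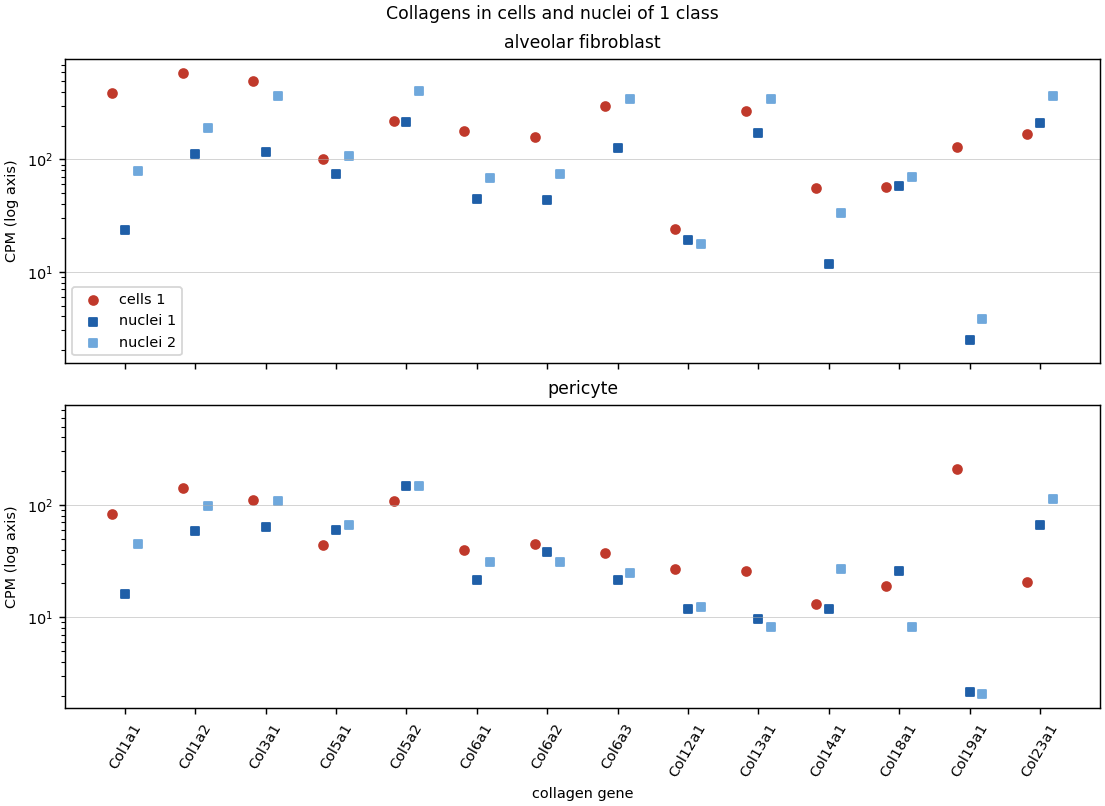
CPM (log axis, TMM scaled) of 14 members in alveolar fibroblasts and pericytes, with 1 point for cells 1, nuclei 1 and nuclei 2 each. In alveolar fibroblasts Col1a1, Col1a2, Col6a1, Col6a2 and Col19a1 lie higher in cells than in both nucleus libraries, while Col5a2, Col6a3 and Col13a1 overlap.

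The difference between cells and nuclei was itself tested between the fibroblast classes. Of 25 members tested, 0 had a larger log2 fold in adventitial than in alveolar fibroblasts and 3 a smaller one, beside 0.259% and 1.71% of all 13488 genes. They were Col13a1 (-4.33 ± 0.43, edgeR adjusted p = 2.84e-06), Col23a1 (-1.84 ± 0.35, edgeR adjusted p = 0.00348) and Col27a1 (-1.63 ± 0.40, edgeR adjusted p = 0.0297). DESeq2 called 1 of the members. At resolution 2, an alternative chosen after seeing the data, 0 were called, and the value for Col13a1 was 0.34 ± 0.97.

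Col19a1 was called higher in cells in alveolar and adventitial fibroblasts, smooth muscle and myofibroblasts, and mesothelial barcodes, and not in pericytes (log2 fold 6.70, edgeR adjusted p = 0.0883). It is a fibril-associated collagen known mainly from muscle and brain, and did not meet the rule for named members, so it was chosen after its values were seen. In cells it ranged from 115 to 342 CPM over 20 classes, with a median of 199 CPM, the lowest in adventitial fibroblasts and the highest in AT2. B cells held 262 CPM and T, NK or ILC2 barcodes 259 CPM. In the nuclei its median over classes was 2.06 and 3.08 CPM, and its highest class was smooth muscle and myofibroblast, at 56.6 and 34.0 CPM. The whole-library log2 fold was 6.01 ± 0.34 (edgeR adjusted p = 0.0025), with 7098 counts in cells and 84 and 105 in nuclei. Col9a1, which ends 9.21 kb away on the other strand, was at 0.451 CPM in cells and 0.294 and 0.871 CPM in nuclei.

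Col23a1, a membrane collagen that can be shed, was lower in cells over whole libraries, and at resolution 1 in adventitial fibroblasts and in smooth muscle and myofibroblasts. Club nuclei held 3460 ± 1535 CPM (SD, n = 2), and AT2 barcodes 86.7, 1552 and 318 CPM in cells, nuclei 1 and nuclei 2. No club class was found in cells. The club cluster of the nuclei had 5 of 9 club markers raised, but none of them among its 10 leading genes. Lymphatic barcodes held 224 CPM in cells and 741 CPM in nuclei 2, and alveolar fibroblasts 167, 212 and 369 CPM, so lymphatic and alveolar fibroblast cells carried the gene in both preparations. Over whole libraries cells had 30.5 CPM and the nuclei 410 ± 45.8 CPM (log2 fold -3.75 ± 0.45, edgeR adjusted p = 0.00475). Classes with little of it in cells were higher in nuclei too, with B cells at 12.3, 60.4 and 109 CPM and alveolar macrophages at 14.0, 41.5 and 80.7 CPM. The part of free RNA from club and AT2 nuclei in these values was not tested.

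**Figure D5:**
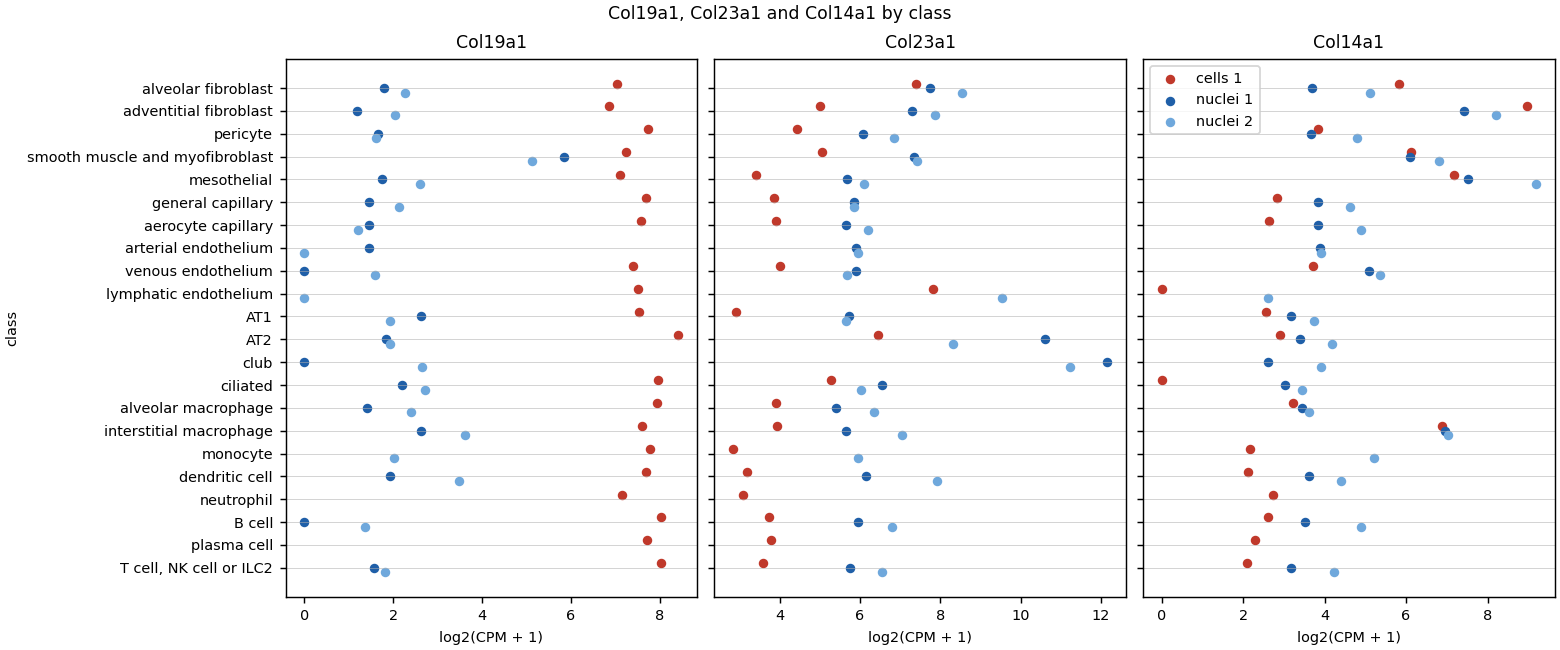
Col19a1, Col23a1 and Col14a1 in each class as log2(CPM + 1), with 1 point per library. Col19a1 is high in all classes of cells, Col23a1 is highest in the club nuclei of both libraries, and Col14a1 is high in adventitial, mesothelial, and interstitial macrophage barcodes of every library.

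Outside the mesenchyme, Col14a1 was raised in 1 immune class. Interstitial macrophages held 117, 122 and 128 CPM in cells, nuclei 1 and nuclei 2, whereas alveolar macrophages held 8.31, 9.97 and 11.3 CPM. Col1a2, the marker collagen of fibroblasts, was at 44.3, 26.1 and 14.9 CPM in the same interstitial macrophages.

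Detection per barcode was set beside classes that should lack fibroblast collagens, after each barcode was thinned to 1000 UMIs. A Col1a1 UMI was found in 38.6% of adventitial cells (exact binomial 95% interval 32.1 to 45.3) and in 6.01% (3.04 to 10.5) and 14.1% (10.4 to 18.6) of adventitial nuclei. Unthinned, the shares were 73.5%, 18.6% and 32.8%. These nuclei are the adventitial class of resolution 1, of which 117 stayed adventitial and 365 were counted as alveolar at resolution 2. In B cells the thinned shares were 0.971%, 1.56% and 1.96%, and in alveolar macrophages 0.397%, 0.649% and 1.12%. In alveolar fibroblasts of nuclei 1 the Col1a1 share was 2.27% (1.25 to 3.78), which overlaps the B cell interval of 0.19 to 5.53, so at this depth it was not distinct from background. Col13a1 was found in 25.0%, 13.3% and 25.7% of alveolar fibroblasts and in 0.194%, 0% and 1.31% of B cells, where 0 of 128 nuclei allows a share of up to 2.34%. Col19a1 was found in 21.7% of B cells and 13.9% of alveolar fibroblasts in the cell library, so its share was not lower in the class that should lack fibroblast collagen. Thinning left out 0 fibroblast barcodes of cells and nuclei 1, and 29 alveolar and 1 adventitial barcodes of nuclei 2. Of the B cells in nuclei 2 it left out 60 and kept 306. Median depth was 2783, 4871 and 2860 UMIs in alveolar fibroblasts and 2584, 2426 and 1234 UMIs in B cells. Intervals cover counting error only.

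The genes that fold, process, bind and sense collagen were followed as 4 lists. Of 14 measured fibril partners, small proteoglycans and glycoproteins that coat fibrils, 8 were higher and 0 lower in whole cell libraries, with a median log2 fold of 1.68 beside -0.03 over all genes. Within alveolar fibroblasts 6 of 11 tested were higher and 0 lower in cells, and the median was 2.56 beside -0.01 over all genes. Fmod (4.94), Thbs1 (4.68), Prelp (3.99) and Ogn (3.75) had the largest log2 folds (edgeR adjusted p from 0.00217 to 0.00387). Within adventitial fibroblasts 9 of 11 were higher and 0 lower, led by Lum at 5.63. Of 21 folding and hydroxylation genes, 4 were higher and 4 lower in whole libraries, and 3 of 20 were higher and 0 lower in alveolar fibroblasts, with medians of 0.18 and 0.68. Over all genes tested, 16.4% were higher and 8.42% lower in whole libraries. The shares were 10.1% and 2.64% in alveolar fibroblasts, and 14.6% and 8.52% in adventitial fibroblasts. Serpinh1, the collagen chaperone, had a log2 fold of 2.46 and P4hb, a subunit of prolyl hydroxylase, of 1.86. Of 15 processing and cross-linking genes, 3 of 14 tested were higher and 0 lower in alveolar fibroblast cells, among them Pcolce (2.14) and Lox (1.77), and the median was 0.67. Of 12 receptors, 0 of 11 tested were called there in either direction, with a median of 0.19. As for the collagens, these calls in alveolar fibroblasts were 0 with RLE scaling.

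By lineage, processing and cross-linking genes were higher in mesenchymal barcodes in 8, 11 and 10 of 15 against endothelial, epithelial and immune barcodes, and lower in 1, 1 and 0, with median log2 folds of 1.42, 1.98 and 1.92 beside -0.02, 0.07 and -0.03 over all genes. Adamts2, which cleaves procollagen ends, had a log2 fold of 4.98 against endothelial barcodes and Loxl1, a cross-linking oxidase, 3.24 (edgeR adjusted p = 5.7e-05 and 0.00014). Fibril partners were higher in 7, 8 and 7 of 12 tested and lower in 0, with median log2 folds of 1.56, 1.85 and 1.89, and Dcn had log2 folds of 3.76 and 4.08 against the first 2. Folding genes were higher in 3, 7 and 9 of 21 and lower in 0, 3 and 3. Receptors were higher in 3, 4 and 6 of 11 and lower in 2, 0 and 1. Beside these 4 lists, 11.1%, 12.7% and 16.8% of all genes tested were higher and 8.69%, 11.3% and 16.0% lower. The fibrillar collagen receptor Ddr2 had log2 folds of 3.68, 4.11 and 4.47, while the integrin subunit Itga2 was lower than in endothelial barcodes (-2.96) and Lair1, an inhibitory receptor of leukocytes, lower than in immune ones (-4.13).

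In pericytes, 1 folding gene of these lists was higher and 4 lower than in alveolar fibroblasts, 2 processing genes higher and 5 lower, 0 partners higher and 6 lower, and 1 receptor higher and 4 lower, beside 7.60% higher and 8.87% lower of all genes. Itga1, a collagen-binding integrin subunit, was the receptor that was higher (log2 fold 4.08), and Adamts2 (-3.21), Loxl1 (-3.02) and Fn1 (-2.89) were among those lower. In smooth muscle and myofibroblasts the counts of higher and lower genes were 2 and 1 for folding, 0 and 5 for processing, 4 and 2 for partners, and 1 and 2 for receptors, beside 4.60% and 4.58% of all genes. Thbs2 (5.72), Lum (4.55) and P4ha3 (4.53) had the largest folds. In mesothelial barcodes they were 1 and 3, 2 and 4, 2 and 3, and 1 and 2, with Tll1 at 4.52 and Pcolce2 at -3.73, beside 9.01% and 9.65% of all genes. In adventitial fibroblasts they were 0 and 0, 1 and 0, 2 and 0, and 0 and 0, with Lum at 4.63 and Dcn at 3.93, beside 1.62% and 0.751% of all genes.

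A longer gene span went with a lower log2 fold of cells over nuclei, among the members much as among all genes. Spearman's rho between the length of the gene on the genome and the whole-library log2 fold was -0.36 over 36 members and -0.33 over 19685 genes with a span. Within alveolar fibroblasts it was -0.35 over 24 members and -0.38 over all genes. It is given as a description, since all points come from the same 3 libraries. Over whole libraries Col1a1 (16.8 kb), Col1a2 (36.7 kb) and Col15a1 (105 kb) were higher in cells and Col23a1 (294 kb) was lower. Col19a1 spans 326 kb but was also higher. Col6a1 (17.4 kb) was higher in cells within alveolar fibroblasts, and was not called over whole libraries. Col14a1 (213 kb), Col13a1 (141 kb) and Col5a1 (153 kb) were not called over whole libraries.

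The other 23 members reached between 1.58 and 342 CPM at their highest in any class and library, with a median of 12.8 CPM, and 9 of them stayed under 10 CPM throughout. Those 9 were Col2a1, Col6a5, Col9a1, Col6a4, Col9a2, Col11a1, Col11a2, Col10a1 and Col9a3, most of them known from cartilage. Col2a1 had 1, 1 and 0 counts in cells, nuclei 1 and nuclei 2, and Col9a2 had 22, 1 and 0. Col20a1 had a median over classes of 13.1, 14.6 and 8.65 CPM, and ranged from 3.74 to 25.1 CPM in cells, from 0 to 32.2 CPM in nuclei 1 and from 0 to 26.5 CPM in nuclei 2. It was higher in mesenchymal than in endothelial barcodes (log2 fold 0.90, edgeR adjusted p = 0.0391) and lower in mesothelial barcodes than in alveolar fibroblasts (-1.57, edgeR adjusted p = 0.0287). With a library left out the first call was lost in each case (edgeR adjusted p from 0.0841 to 0.238). The second was lost without nuclei 2 (-0.74, edgeR adjusted p = 0.437) and without cells (-1.65, edgeR adjusted p = 0.0655). Col16a1, a fibril-associated collagen, reached 25.6, 9.80 and 14.3 CPM in alveolar fibroblasts and was higher in mesenchymal barcodes than in each other lineage. In nuclei 1 and nuclei 2 its highest class was pericyte, at 22.5 and 30.9 CPM. Without nuclei 1 its calls against endothelial (3.05, edgeR adjusted p = 0.0613) and epithelial barcodes (2.02, edgeR adjusted p = 0.133) were lost. Col9a3, Col10a1 and Col18a1 each overlap a gene on the opposite strand that is also in the tables, and whether the counting used strand is not given in the sources used here.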

How the data were processed

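Lung cells (1 library) and nuclei (2 libraries) were measured by droplet RNA sequencing. The authors deposited UMI counts per gene and barcode, aligned to mm10 with STAR 2.5.3a per the submitters' processing notes; the sources used here do not give the counting program or the use of intronic reads. The members and lists were chosen with earlier results of these data known. Genes in both tables were used. Kept barcodes had 400 or more genes and less than 20% mitochondrial counts. Scrublet in scanpy 1.11.5 was run per library and its calls were removed only where they passed 0.5% of barcodes, which was nuclei 1. Each table was clustered by the Leiden method (2000 variable genes, 30 components, 20 neighbours, resolution 1) without any collagen. A cluster was named where at least 3 markers were 2-fold higher and present in 10% of its barcodes, and called mixed where an unrelated class had over 40% of its markers (this limit was set with the clusters in view). Counts were summed per library and class (at least 50 barcodes) and tested with edgeR 4.0.16 quasi-likelihood fits after TMM scaling and filterByExpr, adjusted by Benjamini-Hochberg over all genes. CPM is TMM scaled unless stated, and a fold has the sign of the group named first. Members with at least 50 CPM in 1 class of every library are described in each library. DESeq2 1.42.0, RLE scaling, no filter, left-out libraries and resolution 2 were tried. The edgeR steps were tested on simulated data. Coordinates are GENCODE M21 on GRCm38, and promoters are RefSeq.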

Additional observations from a re-analysis of the deposited data

Results flagged for a closer look

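The interaction test for the cells-against-nuclei difference of adventitial less alveolar fibroblasts gave a log2 value of -4.33 for Col13a1, -1.84 for Col23a1 and -1.63 for Col27a1, so that the difference itself passed the threshold between the fibroblast classes (edgeR adjusted p = 2.84e-06, 0.00348 and 0.0297). At Leiden resolution 2 none of them passed. Outside all named classes, 13 nuclei whose leading genes include Snap25 and Pcsk1 held Col8a1 at 3287 CPM over both nucleus libraries (181 of 55063 counts), with 4483 CPM in nuclei 1 and 2785 CPM in nuclei 2. These values carry no TMM scaling and rest on 3 nuclei of nuclei 1 and 10 of nuclei 2. They lay above the TMM-scaled pericyte levels of 752 and 424 CPM in those libraries. The group held 0 cells, so the cell library offers no such comparison.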

How the results depend on the processing

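Calls of members stayed within 1.5 times of the main count under all alternatives run, except as follows. In adventitial against alveolar fibroblasts the 1 call became 6 with no filter on low counts and 8 at resolution 2, and 1 to 5 with a library left out. Left-out libraries gave 10 to 17 calls for mesenchymal against endothelial, 12 to 22 against epithelial, 7 to 11 for pericytes and 0 to 4 for smooth muscle and myofibroblasts. Their counts within the limit were 16 to 21 against immune and 7 to 12 for mesothelial barcodes. Within alveolar fibroblasts RLE scaling and no filter each gave 0 calls in place of 5. Within pericytes no filter gave 4 and DESeq2 1 in place of 0, within smooth muscle and myofibroblasts DESeq2 gave 0 in place of 5, and within mesothelial barcodes no filter gave 5 and DESeq2 1 in place of 2. For the interaction, DESeq2 gave 1 and resolution 2, chosen after seeing the data, gave 0 in place of 3. At resolution 2 the interaction turned to 0.34 for Col13a1 and 0.16 for Col27a1, and Col8a1 within smooth muscle and myofibroblasts turned to 0.98. The causes were not tested. Between the fibroblast classes, resolution 2 moves 365 nuclei from adventitial to alveolar. For smooth muscle and myofibroblasts, the nuclei stayed at 140 and 84, while the cells went from 125 to 176. Pericyte cells went from 559 to 448. Leaving out a nucleus library leaves cells-against-nuclei fits with no residual degrees of freedom, so only folds were computed there. No fold of a called member turned, but 4 without nuclei 1 and 9 without nuclei 2 moved by more than their standard error. Shares thinned to 500 or 2000 UMIs moved with depth, as that step sets. No paired analysis of cells and nuclei was possible, because the labels link the cell library to neither nucleus library. The lineage and class comparisons had the library as a term throughout. Depth limits members with few counts.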
